A study of Saccharomyces cerevisiae with 12 samples.

Results

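The proteasome is the large protease that degrades ubiquitin-tagged proteins in the cytosol and nucleus of eukaryotic cells. Its genes were followed here in Saccharomyces cerevisiae growing on glucose, maltose, ethanol or acetate. The members were 32 genes chosen by their place in the complex and found through the gene annotation of the array. They comprised the 7 alpha and the 7 beta subunits of the 20S core, the 6 ATPases and 3 other subunits of the base, 8 lid subunits and RPN4. RPN4 is not a subunit but the transcription factor of the subunit genes. All 32 were found, 30 of them with 1 probe set and 2, PRE3 and RPT5, with several. Each gene was read from its brightest probe set, by mean signal over the arrays. All 32 were above the floor of 12 signal units on all 12 arrays, among 5325 genes tested.

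In the 20S core, outer rings of alpha subunits gate the entry and inner rings of beta subunits hold the proteolytic sites. The 19S cap binds ubiquitin chains, removes them and threads the unfolded substrate into the core with its ring of ATPases. Rpn4 binds a shared element in the promoters of subunit genes and is itself a short-lived substrate of the proteasome, so that subunit transcripts rise when proteasome capacity falls short.

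The study's question was to what degree mRNA levels account for the routing of carbon through central metabolism. Each source had 3 numbered aerobic chemostat cultures, each on its own Affymetrix Yeast Genome S98 array, kept at pH 5, 30 °C and a dilution of 0.1 per hour. Growth rate was thus the same in all groups, and the carbon source was the limiting nutrient. The maltose, ethanol and acetate cultures were of the wild-type MATa strain CEN.PK113-7D and received 256 mmol of carbon per litre, while the labels of the glucose cultures used here give neither strain nor carbon dose. Nothing in the labels says more about how separate the cultures of a source were, so p-values measure only the spread between these samples, which may be in part technical.

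Some arrays stood apart. The 3'/5' signal ratio of the actin control, a sign of RNA quality, was between 9.27 and 13.98 on ethanol arrays 2 and 3 and acetate arrays 2 and 3, and 3.31 or less on the other 8. The median signal was 22.8 on maltose array 2 and between 41.7 and 48.4 elsewhere. The labels carry a code letter of unstated meaning, M for maltose cultures 1 and 2, V for glucose culture 2 and P for the other 9. The glucose arrays came from other records with their own protocol text, which cannot be told apart from the carbon source. Of the mating type markers, MFA1, MFA2, STE2 and BAR1 of MATa cells were above the floor on all 12 arrays. Of the alpha-cell genes, MF(ALPHA)2 was above it on 1 array, STE3 read 43.9 or less, SAG1 read 51.2 to 164, and MF(ALPHA)1 stayed at 41.6 or less except for 232 on glucose array 1.

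By the brightest probe set of each gene, transcripts of the proteasome differed little between carbon sources. The highest and the lowest of the 4 source means of a gene lay a median of 0.32 apart on the log2 scale, and at most 0.64, which is a 1.56-fold step, for RPN2 and SCL1. By these probe sets none of the 32 genes had source means more than 1 log2 unit apart, against 17.7% of the 7176 probe sets tested. The median of this range was 0.62 over all probe sets and 0.52 over the 1755 probe sets whose mean signal lay within that of the members, 183 to 1293. The spread between cultures of a source was small as well, with a median SD of 0.17 log2 units for the members, 0.36 for all probe sets and 0.29 for those of like signal. The members were read from 1 brightest probe set per gene. Further probe sets of RPT5 differed more, at log2 -1.62 and -1.50 on ethanol and acetate together against glucose and maltose together. Those of PRE3 were at -0.82 and -0.88. Both backgrounds hold every tested probe set, with further ones of a gene and ones without a gene, so the sets are not alike. The same holds for the shares of calls given below. These figures describe the genes, and no test was made of them as a set.

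**Figure D1:**
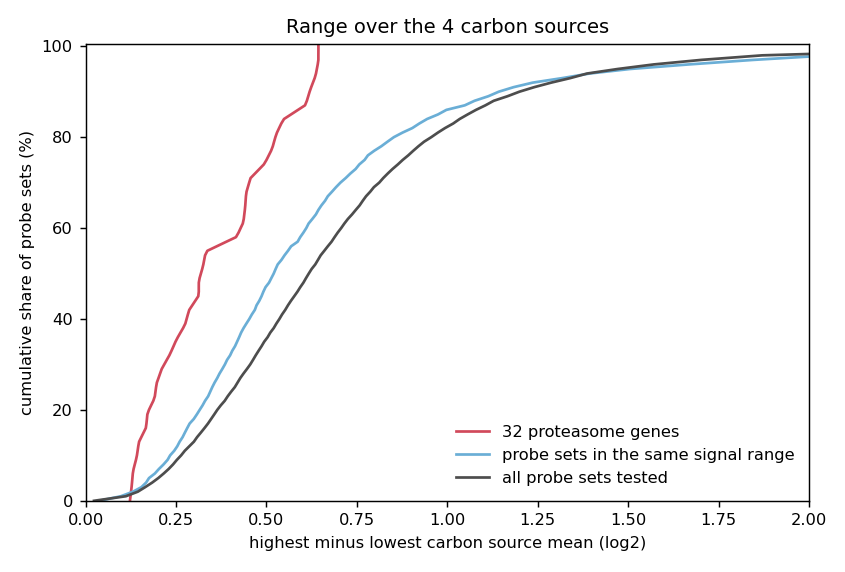
Cumulative share of probe sets (y axis, percent) by the distance between the highest and lowest carbon source mean (x axis, log2 units). The 32 proteasome genes, each by its brightest probe set, end at 0.64. The curves of all probe sets tested and of those in the same signal range go beyond 1 for 17.7% and 14.0%.

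The first comparison set the C2 compounds, ethanol and acetate together, against the sugars, glucose and maltose together, to ask which transcripts go with gluconeogenic growth. Of the 32 genes limma called 3 at an adjusted p under 0.05. The alpha subunit gene PRE6 and the ATPase gene RPT1 fell, and the base scaffold gene RPN2 rose. This is 9.38% of the members, against 17.1% of all probe sets tested (11.4% higher and 5.69% lower) and 25.2% of the probe sets within the members' signal range. At an unadjusted p under 0.05 there were 7, namely SCL1, PRE6, PUP1, PUP3, RPT1, RPN1 and RPN2. The share of all probe sets at that unadjusted threshold is not given here. Such counts, here and below, therefore have no background to be set against. The log2 changes of the 32 ran from -0.51 to 0.45, 20 of them negative, with a median of -0.11 where that of all probe sets was 0.12. Their 95% intervals, taken gene by gene without adjustment, reached from -0.82 at the lowest to 0.76 at the highest. By the brightest probe set, a 2-fold difference was thus outside the interval of each of the 32. Further probe sets of RPT5 had larger falls, at log2 -1.62 and -1.50, so this bound holds only for the probe sets chosen. The all-gene median depended on the scaling: it was 0.03 after quantile normalization and -0.02 with arrays centred on their medians, where the members' median was -0.11 and -0.25.

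**Figure D2:**
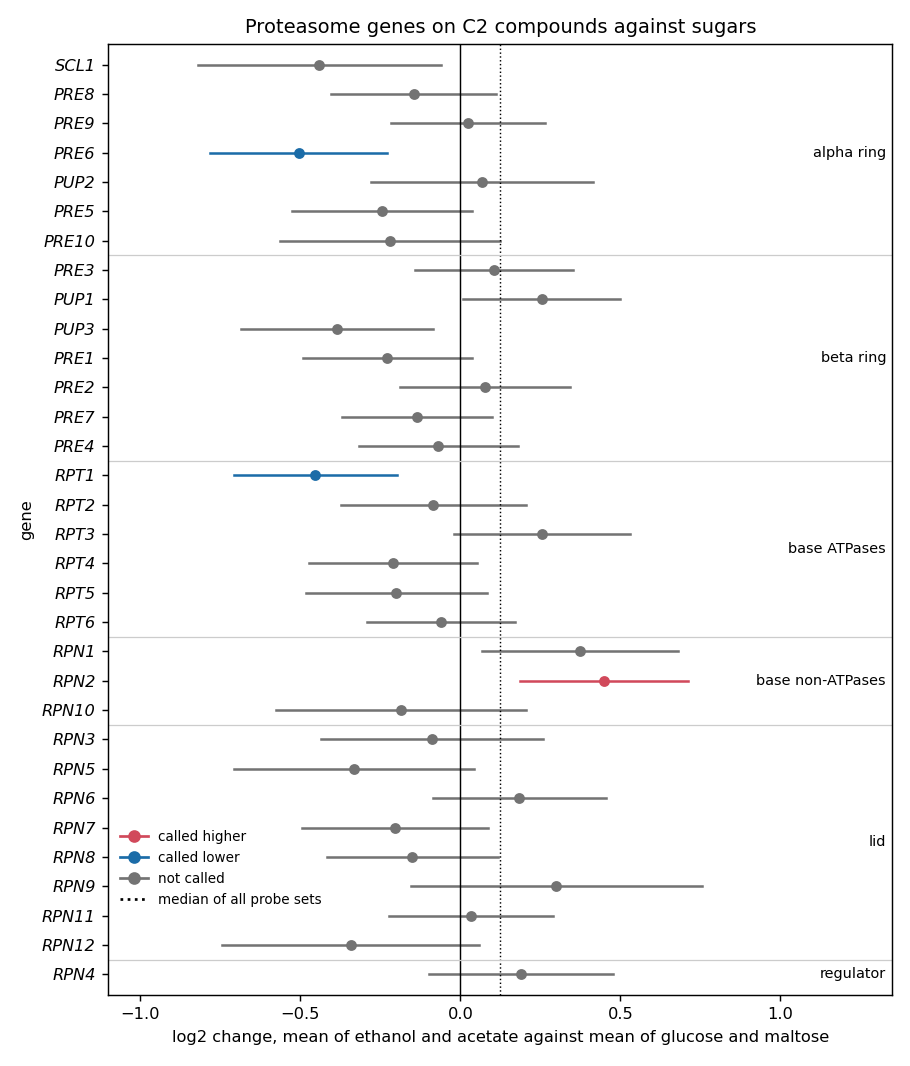
Log2 change of each proteasome gene on C2 compounds against sugars (x axis; points with 95% intervals, 6 arrays against 6), in the order of roles in the complex. PRE6 and RPT1 are called lower and RPN2 higher; the other 29 genes are not called, and all intervals lie between -0.82 and 0.76.

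In the alpha ring 5 of the 7 genes had a negative log2 change, with a median of -0.22 over the ring. The 1 gene called was PRE6, which encodes the alpha 4 subunit. Its signal was 1528, 1858 and 1460 in the glucose cultures, 1257, 1638 and 1367 in maltose, 1058, 1077 and 1002 in ethanol and 1325, 978 and 964 in acetate. Acetate culture 1 read above maltose culture 1, and the other 5 C2 cultures were below all 6 sugar cultures. PRE6 fell 1.42-fold on C2 compounds (log2 -0.51 ± 0.13, where ± gives the SE and each side had 6 arrays; limma adjusted p = 0.0151). SCL1, the alpha 1 gene, had the next largest difference, with 278, 279 and 313 in glucose, 328, 184 and 314 in maltose, 292, 198 and 201 in ethanol and 229, 191 and 145 in acetate. It was not called (log2 -0.44 ± 0.18, limma adjusted p = 0.102), and maltose culture 2 read below all C2 cultures but acetate culture 3. PRE8, PRE9, PUP2, PRE5 and PRE10, the other alpha genes, had log2 changes between -0.24 and 0.07. PRE9, whose product is the one alpha subunit that yeast can do without, kept between 339 and 441 on all arrays.

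Among the beta subunits PRE3, PUP1 and PRE2 encode the caspase-like, trypsin-like and chymotrypsin-like proteolytic sites. PRE2 read 845, 848 and 879 in glucose, 718, 952 and 1058 in maltose, 978, 819 and 1026 in ethanol and 879, 968 and 899 in acetate. The 4 groups overlapped, and the change was log2 0.08 ± 0.12 (limma adjusted p = 0.708). PRE3 read 686, 745 and 718 in glucose, 763, 643 and 787 in maltose, 717, 787 and 884 in ethanol and 691, 846 and 757 in acetate, again with overlapping groups (log2 0.11 ± 0.12, adjusted p = 0.561). PUP1 was at 482, 514 and 517 in glucose, 468, 600 and 558 in maltose, 615, 739 and 709 in ethanol and 575, 588 and 530 in acetate. All 3 ethanol cultures were above every other culture, yet PUP1 was not called on C2 compounds (log2 0.25 ± 0.12, limma adjusted p = 0.142) or for ethanol against glucose.

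The beta genes without a proteolytic site did not pass either. PUP3, of beta 3, had mean signals of 1244 ± 23.4 (SD, n = 3) in glucose, 1461 ± 214 in maltose, 1027 ± 188 in ethanol and 1058 ± 230 in acetate, with a log2 change of -0.39 ± 0.14 (limma adjusted p = 0.0718). PRE1, PRE7 and PRE4 changed by -0.23, -0.14 and -0.07. PRE7 was among the steadiest members, at 524 to 729 on the 12 arrays.

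In the base, 5 of the 6 ATPase genes had a negative log2 change, and 1 was called. RPT1 read 986, 793 and 848 in glucose, 1003, 963 and 912 in maltose, 741, 652 and 738 in ethanol and 714, 655 and 532 in acetate. The C2 cultures were below the sugar cultures without overlap. The fall was 1.37-fold (log2 -0.45 ± 0.12, limma adjusted p = 0.0174). RPT3 pointed the other way, at log2 0.26 ± 0.13 without a call, and RPT2, RPT4, RPT5 and RPT6 lay between -0.21 and -0.06. RPT6 had the smallest spread between cultures of a source among the 32 genes, an SD of 0.09 log2 units, and signals from 803 to 987.

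RPN2 and RPN1 encode the pair of large scaffold subunits of the base, on which ubiquitin receptors and shuttle factors dock. RPN2 read 540, 387 and 436 in glucose, 360, 346 and 361 in maltose, 527, 587 and 555 in ethanol and 469, 612 and 540 in acetate. All 6 C2 cultures were above the 3 maltose cultures, and glucose culture 1 fell among the C2 cultures. The rise was 1.37-fold (log2 0.45 ± 0.12, limma adjusted p = 0.0218). RPN1 had mean signals of 349 ± 18.5 (SD, n = 3) in ethanol and 315 ± 15.7 in acetate, against 270 ± 8.15 in glucose and 249 ± 68.4 in maltose. It did not pass (log2 0.37 ± 0.14, limma adjusted p = 0.086), and its maltose signals were 263, 174 and 309, the lowest of them on the dim array 2. RPN10, a ubiquitin receptor between base and lid, varied widely within each source, from 506 to 1088 over the 12 arrays (log2 -0.19 ± 0.18).

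No lid gene was called. RPN12 and RPN5 had the lowest values (log2 -0.34 ± 0.19 and -0.33 ± 0.18, limma adjusted p = 0.224 and adjusted p = 0.208), and RPN9 the highest (0.30 ± 0.21, adjusted p = 0.35). RPN9 was also the least steady gene, since it read 217, 118 and 367 in the 3 maltose cultures. RPN11, which encodes the deubiquitinase that clips chains off substrates, changed by log2 0.03 ± 0.12 with signals from 581 to 787. RPN3, RPN6, RPN7 and RPN8 had log2 changes between -0.21 and 0.18.

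**Figure D3:**
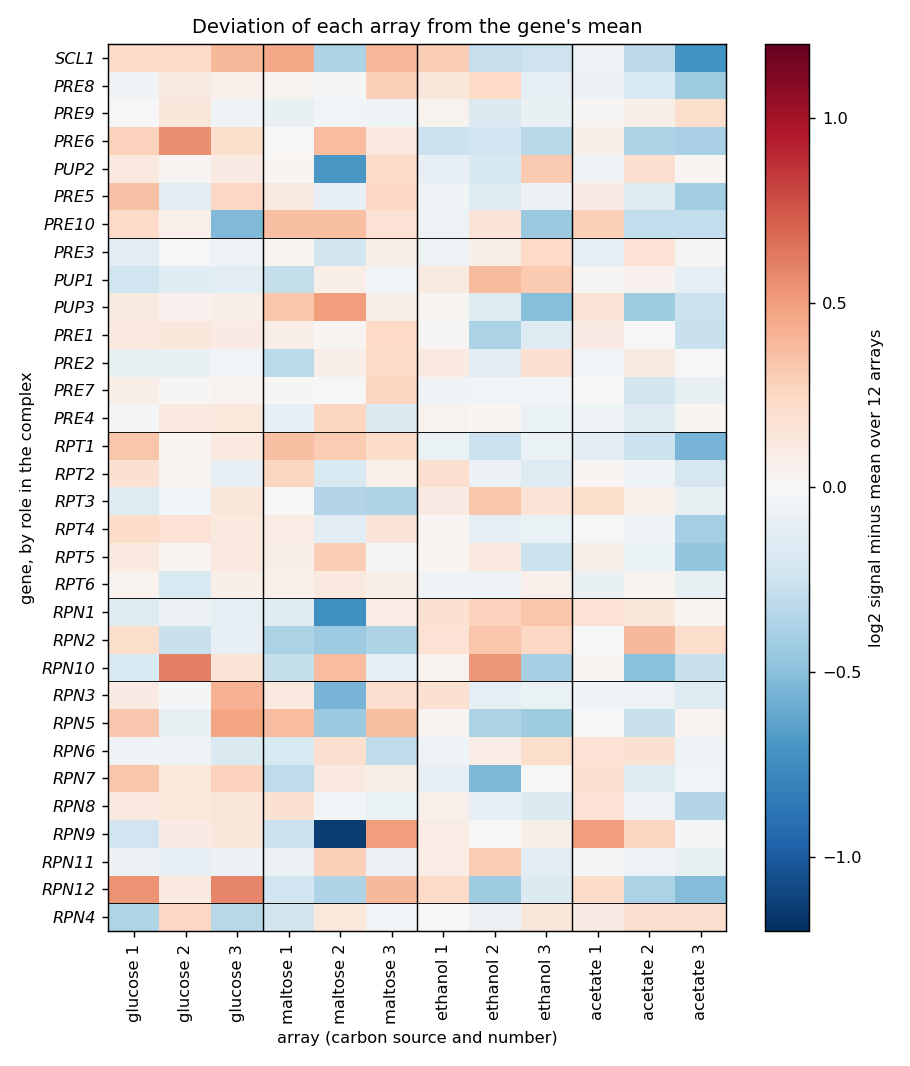
Deviation of each array from the gene's mean over the 12 arrays (colour, log2 units; red above, blue below), with arrays in columns by carbon source and genes in rows by role. Deviations run from -1.14 (RPN9 on maltose array 2) to 0.61, and no carbon source has 1 colour for the whole complex.

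RPN4 itself read 298, 456 and 304 in glucose, 329, 417 and 374 in maltose, 385, 364 and 421 in ethanol and 411, 437 and 441 in acetate. From lowest to highest, the source means were those of glucose, maltose, ethanol and acetate, at 353 ± 89.4 (SD, n = 3), 373 ± 43.9, 390 ± 28.7 and 430 ± 16.4, and neighbours in this order overlapped. Glucose culture 2 held the highest of the 12 values and glucose culture 1 the lowest. On C2 compounds RPN4 was at log2 0.19 ± 0.14 (limma adjusted p = 0.348). The sign turned to log2 -0.0089 when glucose arrays 1 and 3 were left out, which leaves 1 glucose array assumed to vary like the others, and limma called RPN4 with array weights (log2 0.29, adjusted p = 0.0358).

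**Figure D4:**
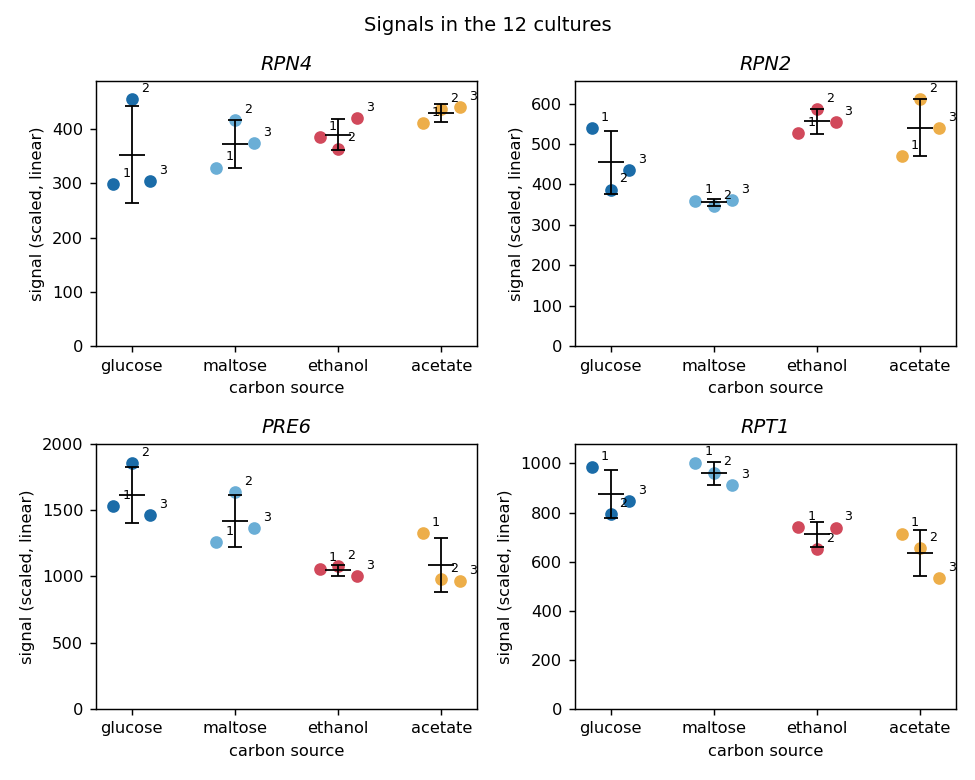
Signals of RPN4, RPN2, PRE6 and RPT1 (y axis, scaled linear units from 0) in the 3 cultures of each carbon source (points, numbered), with mean and SD (bars). RPT1 is at most 741 in the ethanol and acetate cultures and at least 793 in the glucose and maltose cultures; RPN4 overlaps between all sources.

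Pairs of sources were compared next, each with 3 arrays against 3; pairs that name the same source share its arrays. The calls lay in the pairs of a C2 source with maltose. On ethanol RPN2 was 1.56-fold above maltose (log2 0.64 ± 0.18, limma adjusted p = 0.0414), the 1 call of 32 in a pair where 6.19% of all probe sets were called, and 7 members had an unadjusted p under 0.05. On acetate RPN2 was 1.51-fold above maltose (log2 0.59 ± 0.18, adjusted p = 0.0407), and RPT1 was 1.52-fold below it (log2 -0.61 ± 0.17, adjusted p = 0.0329). These were 2 calls of 32, or 6.25%, against 11.2% of all probe sets. The calls of RPN2 did not hold with the replicate block (limma adjusted p = 0.056 on ethanol and adjusted p = 0.0539 on acetate), while RPT1 kept its call there (adjusted p = 0.034). Leaving out single arrays ended the call of RPN2 on ethanol in 8 of 12 fits (adjusted p up to 0.14, without ethanol array 2) and on acetate in 6 (up to 0.18, without acetate array 2), and that of RPT1 in 4 (up to 0.166, without acetate array 3). Against glucose the log2 differences of ethanol and acetate were 0.30 ± 0.18 and 0.26 ± 0.18 for RPN2, -0.30 ± 0.17 and -0.47 ± 0.17 for RPT1, and -0.62 ± 0.18 and -0.58 ± 0.18 for PRE6, none of them called by limma.

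The remaining pairs had no call among the 32 genes by limma. For ethanol against glucose, where 2.55% of all probe sets were called, 3 members had an unadjusted p under 0.05, and for acetate against glucose, with 5.5% called, 4 had one. Maltose against glucose and ethanol against acetate gave 0 members even without adjustment, in pairs where 0.209% and 0.0279% of all probe sets were called. Between ethanol and acetate the log2 differences of the 32 genes ran from -0.22 to 0.31, with intervals from -0.84 to 0.85. The other pairs did not keep every interval within 1 log2 unit. Against glucose, the intervals of 29 of the 32 genes stayed within it for ethanol, 30 for acetate and 31 for maltose. Against maltose, those of 31 stayed within it for ethanol and 30 for acetate. A 2-fold difference was thus not outside every interval in these pairs. The F test over the 4 sources called 0 members, with 3 at an unadjusted p under 0.05 and the lowest adjusted p, 0.0707, for RPN2; it called 8.19% of all probe sets.

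By order of the source means, acetate was the lowest source for 14 of the 32 genes, ethanol for 7, maltose for 6 and glucose for 5, where the shares over all probe sets were 17.9%, 15.2%, 49.3% and 17.6%. Glucose was the highest source for 13, maltose for 8, ethanol for 7 and acetate for 4, where the shares over all probe sets were 30.3%, 14.7%, 23.0% and 32.0%. On the dim maltose array 2, 23.1% of all probe sets and 15 of the 32 members were above their maltose mean. The part of this array in the order of sources was not tested. Within acetate the number of members above their source mean differed between cultures, as did the actin ratio. On array 1, with a ratio of 2.78, 25 of the 32 genes were above their acetate mean. On arrays 2 and 3, with ratios of 10.2 and 13.1, 20 and 6 were above it, while the shares over all probe sets were 50.7%, 46.0% and 49.1%. In ethanol 21, 14 and 14 members were above the mean on arrays 1, 2 and 3. The shares over all probe sets on these ethanol arrays were 48.7%, 42.6% and 53.1%. The part of RNA quality in these differences was not tested.

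The further probe sets of PRE3 and RPT5 differed from the brightest ones, most of all on the arrays with a high ratio. By the brightest probe set PRE3 was at log2 0.11, but its other probe sets, the second and the third in brightness, were called lower on C2 compounds (log2 -0.82 ± 0.25, limma adjusted p = 0.0342, and -0.88 ± 0.25, adjusted p = 0.0254). The signal of the third was 183, 143 and 170 in glucose, 190, 86.9 and 156 in maltose, 116, 68.6 and 63.9 in ethanol and 113, 97.99 and 53.3 in acetate. Array 1 of ethanol and of acetate thus read above arrays 2 and 3 of the same source.

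For RPT5 the brightest probe set was at log2 -0.20 ± 0.13 without a call, while the second and the third in brightness were called lower (log2 -1.62 ± 0.43, limma adjusted p = 0.0189, and -1.50 ± 0.39, adjusted p = 0.0172). On the second the 4 arrays with a high 3'/5' ratio read 33.3 to 63.1 and the other 8 arrays 132 to 408, with no overlap. On the third these ranges were 6.90 to 28.3 and 41.1 to 137. The fourth probe set was above 12 on 1 array and was not tested. The values of PRE3 and RPT5 therefore depend on which probe set stands for the gene.

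**Figure D5:**
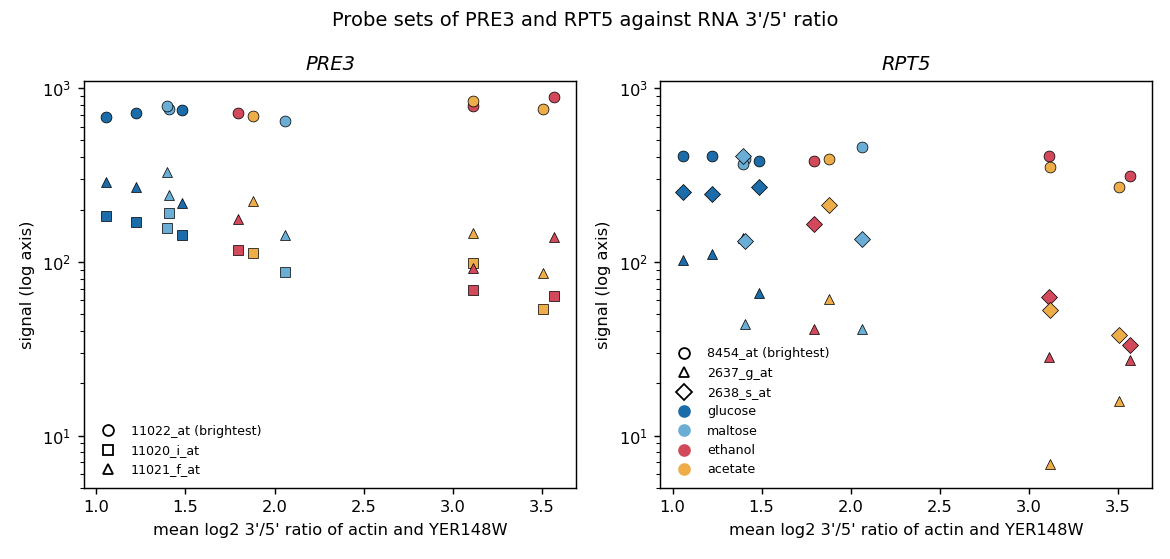
Signals (y axis, log scale) of the tested probe sets of PRE3 and RPT5 on the 12 arrays against the mean log2 3'/5' ratio of the actin and YER148W controls (x axis), coloured by carbon source. The brightest probe sets stay between 643 and 884 for PRE3 and between 270 and 457 for RPT5, while the others are lowest on the 4 arrays with the highest ratios, except that PRE3 probe sets also read low on maltose array 2.

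The partners of the proteasome were counted over 44 further genes in lists by function. Neither of the other subunit genes was called on C2 compounds, RPN13 (log2 -0.45 ± 0.19, limma adjusted p = 0.107) and SEM1 (0.24 ± 0.18, adjusted p = 0.379). Of the 9 assembly factor genes limma called 0, with 2 at an unadjusted p under 0.05, UMP1, the maturation factor of the core, at log2 0.51 ± 0.23 and RPN14 at 0.46 ± 0.20. Of the 5 associated factors it called 0, again with 2 at an unadjusted p under 0.05. These were UBP6, a deubiquitinase bound to the cap (log2 0.34 ± 0.13), and ECM29, which ties cap to core (0.54 ± 0.25, with its other tested probe sets between -0.47 and 0.61). The dimmer probe set of BLM10, an activator that caps the core, was called lower (log2 -1.46 ± 0.44, limma adjusted p = 0.0327) while the brightest, which stood for the gene, was at 0.01 ± 0.14. On the dimmer one the 4 arrays with a high 3'/5' ratio read 17.6 to 32.8 and the other 8 arrays 47.2 to 268.

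In the ubiquitin conjugation list 2 of 11 genes rose and 1 fell on C2 compounds, or 27.3% called, against 17.1% of all probe sets. UBR1, the ligase of the N-degron pathway, rose 1.58-fold (log2 0.66 ± 0.18, limma adjusted p = 0.0192) with no overlap between C2 and sugar cultures, and UFD4, which works with it, rose by log2 0.71 ± 0.22 (adjusted p = 0.0413). RSP5, the ligase of membrane protein sorting, fell by log2 0.80 ± 0.22 (adjusted p = 0.0206), but was at -0.13 once that ratio entered the fit as a covariate. UBR2, MUB1 and RAD6, whose products mark Rpn4 for degradation, were at log2 0.44, 0.46 and -0.33 without a call. Of the 8 shuttle factor and segregase genes 1 rose, or 12.5%, namely DSK2 (log2 0.55 ± 0.17, adjusted p = 0.0357). Against maltose, DSK2 was called on ethanol (log2 1.10 ± 0.24, limma adjusted p = 0.0135) and not on acetate (0.31 ± 0.24, adjusted p = 0.416). The direct difference of ethanol from acetate, log2 0.80 ± 0.24, was not called (adjusted p = 0.812). The segregase gene CDC48 was at log2 0.01.

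Among 4 activator genes with sites in the RPN4 promoter, PDR1, a regulator of drug resistance, rose 1.56-fold (log2 0.64 ± 0.16, limma adjusted p = 0.0129), while PDR3, YAP1 and HSF1 were not called. Of 5 vacuolar protease genes, which serve the other main route of protein breakdown, LAP4 (APE1 in the current annotation) fell 1.51-fold (log2 -0.60 ± 0.14, adjusted p = 0.00874). PEP4, the master protease of the vacuole, was at log2 0.02. The single calls were 25% of the activator genes and 20% of the protease genes, against 17.1% of all probe sets. Relative to maltose, limma also called UBR1 on ethanol (log2 0.96, adjusted p = 0.0326) and acetate (log2 0.89, adjusted p = 0.034). PDR1 was called on both as well (0.89, limma adjusted p = 0.0289, and 0.78, adjusted p = 0.0384), and LAP4 on acetate (-1.105, adjusted p = 0.00229). Of all probe sets 6.19% were called for ethanol and 11.2% for acetate against maltose. In these pairs, leaving out single arrays ended the call of UBR1 in 6 of 12 fits on ethanol and in 4 on acetate. The call of PDR1 ended in 3 and 7 such fits, and that of LAP4 on acetate in 0. None of the 6 related genes called on C2 compounds was called with that covariate or with array 1 alone of ethanol and acetate, and each kept its sign there.

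The calls of PRE6, RPT1 and RPN2 on C2 compounds were close to the threshold. None of them was called with array 1 alone of ethanol and acetate, lone arrays assumed to vary like the others (log2 -0.35, -0.33 and 0.31), or with the covariate (-0.40, -0.28 and 0.36). The same held within the arrays of code letter P (-0.43, -0.45 and 0.38), where maltose and glucose had 1 and 2 arrays, and with the letter as a block. With arrays centred on their medians RPT1 was called, but not PRE6 (log2 -0.64, limma adjusted p = 0.063) or RPN2 (0.31, adjusted p = 0.274). Each of the 3 genes kept its sign in every alternative run. Leaving out acetate array 3 ended all 3 calls, and leaving out ethanol array 2 or acetate array 2 left 1.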

How the data were processed

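The authors deposited 1 table of linear probe set signals (intensity values), 9335 probe sets by 12 arrays; per the submitters' processing notes MAS5 made the maltose, ethanol and acetate columns, of a version not given in the sources used here; for the glucose columns the software is not stated. The deposited intensities had 2% trimmed means of 150.11 to 150.18. Signals were brought to 1 trimmed mean, values under 12 set to 12, and log2 taken; without 60 controls, the 7176 probe sets above 12 on at least 3 arrays were tested. Genes came from the platform annotation with symbols updated from RefSeq (R64); 6504 probe sets had 1 gene, 328 several and 2443 none. Every contrast was tested on all 12 arrays with limma 3.58.1 (R 4.3.3), with 1 mean per source and a prior variance that followed signal, with Benjamini-Hochberg adjustment over all probe sets within each. The code was tested on simulated data. The rule for named genes took all 32 members and the called genes of the related lists; other related genes were named after their values were seen. Array signals were filtered anew when arrays were left out. Members, lists, tests and alternatives were chosen with earlier results of these data known. Arrays have no read depth; their number limits precision. Sequences, promoters and coordinates were not analysed here.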

Additional observations from a re-analysis of the deposited data

How the results depend on the processing

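The count of 3 proteasome genes called on C2 compounds was 12 with array weights and 0 with the 3'/5' covariate, with array 1 alone of both C2 sources, with the code letter as a block and within code letter P; the other 8 alternatives gave 2 to 4, and median centring called RPT1 with SCL1 and RPN5 in place of PRE6 and RPN2. Ethanol against maltose (1 call) gave 7 with array weights and 0 with median centring, the replicate block, no intensity trend, the covariate, only array 1, either use of the code letter and without glucose arrays 1 and 3. Acetate against maltose (2 calls) gave 8 with array weights, 1 with the replicate block and 0 with no trend, the covariate, only array 1, either use of the letter and without glucose arrays 1 and 3. Array weights gave 5 calls for ethanol against glucose, 11 for acetate against glucose, 1 for ethanol against acetate and 12 in the F test, where the main counts were 0. On C2 compounds array weights raised the calls over all probe sets as well, to 2826 beside 1225. For the other contrasts the calls over all probe sets with array weights are not given here. Quantile normalization gave 1 call for ethanol and for acetate against glucose and 1 in the F test, PRE6 each time. Leaving out single arrays gave 0 to 5 C2 calls. The count was 5 without maltose 2 or 3, 1 without ethanol 2 or acetate 2, 0 without acetate 3. Against maltose such fits gave 0 to 2 for ethanol (159 to 1030 over all probe sets) and 0 to 3 for acetate (262 to 1355). The ethanol count was 0 on leaving out any of 8 arrays and 2 without maltose 3. The acetate count was 0 or 1 without glucose 3, maltose 1 or 2, ethanol 2 or acetate 2 or 3. Acetate against glucose (125 to 678) and the F test (299 to 1072) gave 0 to 1, the 1 without acetate 1. PRE6 lost its C2 call in 2 of 12 such fits, RPT1 in 3 and RPN2 in 5 (adjusted p up to 0.0507, 0.0605 and 0.0729). RPN4 turned to log2 -0.0089 without glucose arrays 1 and 3. Over all probe sets the C2 calls were 101 with array 1 alone, 147 with the covariate, 506 without glucose arrays 1 and 3, 568 with the letter as a block, 754 within code letter P and 761 with a mean signal of at least 100, and 2826 with array weights, beside 1225; single arrays left out gave 715 to 1537. Where no smaller set of arrays was used, the cause of these differences was not tested. Of the related genes, LAP4 and PDR1 kept their C2 calls without any single array, and UFD4 and DSK2 lost theirs in 7 of 12 such fits each. The labels do not say that a replicate number marks anything shared between sources. Of 18 same-numbered pairs of arrays 6 had a correlation of deviations over 0.1, in a range from -0.209 to 0.529. The highest was that of ethanol array 1 with acetate array 1, and 8 of 12 arrays matched their own number best in another source. Pairs of arrays with unlike numbers ranged from -0.522 (ethanol array 3 with acetate array 1) to 0.307 (maltose array 3 with ethanol array 1). Whether the numbers mark something shared was not tested. The replicate block left the 3 C2 calls in place and ended the calls of RPN2 against maltose. The dimmest member had a mean signal of 183, so background limits these values little.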
